A study of Mus musculus with 6 samples.

Results

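The 10 genes described here are the cyclins and kinases of the G1 phase of the cell cycle and a pair of *Myc* genes: *Ccnd1*, *Ccnd2*, *Ccnd3*, *Ccne1*, *Ccne2*, *Cdk2*, *Cdk4*, *Cdk6*, *Myc* and *Mycn*. They were chosen by name, through the annotation that pairs the probe sets of the array with gene symbols. All 10 were found, each with 1 probe set of its own, among 19938 genes that have a probe set to themselves and 23410 probe sets that carry at least 1 gene symbol. The tissue was whole dorsal skin, hybridised mouse by mouse to 6 Affymetrix mouse gene arrays, and 3 Bmal1-/- mice were compared with 3 Bmal1+/- littermates. *Bmal1* encodes a transcription factor that pairs with CLOCK to drive the circadian clock. The labels put every mouse at postnatal day 22 and stage every skin as telogen, when hair follicles rest. Bmal1+/- replicate 1 was the only male, and for the same mouse another label gives day 23. The other 5 mice were female. The mice were on a C57BL/6J background and the knockout was in the whole body, so *Bmal1* was missing from every tissue and not from the skin alone. The control mice carried 1 disrupted allele as well, and no wild-type skin enters this comparison.

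A cell that leaves rest passes through G1, and the proteins of these genes set when it does so. The D-type cyclins are made in response to growth signals and activate the kinases Cdk4 and Cdk6, which phosphorylate the retinoblastoma protein and release E2F transcription factors. E2F then raises cyclin E, which activates Cdk2, together with the genes needed to copy DNA, while Myc is a transcription factor that drives growth and is itself induced early by growth signals. In telogen skin most follicle stem cells are quiescent, while the epidermis between follicles keeps renewing.

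The array reports a brightness, or intensity, for each probe set, given here without logarithm. Tests were run with limma, a linear model with moderated variances, on log2(intensity + 16). Each log2 fold change is Bmal1-/- minus Bmal1+/- on that scale, and an offset of this kind understates differences in dim genes. A gene was called at an adjusted p under 0.05, with adjustment over all 23410 probe sets. Array medians ran from 219 to 235.5 and pairs of arrays correlated at 0.9893 to 0.995, so no array stood apart on these measures. *Arntl*, the array's name for *Bmal1*, read 325, 365 and 355 in Bmal1+/- and 569, 609.8 and 664 in Bmal1-/- skin. The sources used here do not say where its probes lie relative to the deletion, and the genotype labels could not be checked by it. The arrays give no counts, and their number limits the precision.

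None of the 10 genes was called with limma, in either direction, where 0.132% of all probe sets were called lower and 0.0982% higher. *Ccnd1* had the smallest p of the 10 and was 167th of the 23410 probe sets by p. At an unadjusted limma p under 0.05, 3 of the 10 were lower, *Ccnd1*, *Cdk4* and *Mycn*, and 0 were higher, where 4.6% of all probe sets were lower and 4.17% higher. At an unadjusted limma p under 0.001 there were 0 of the 10, where 0.397% of all probe sets were lower and 0.252% higher. In 3 of the 10, *Ccnd1*, *Cdk2* and *Cdk4*, the groups did not overlap and Bmal1-/- was lower, beside 7.68% of all probe sets, and in 0 of the 10 it was higher without overlap, beside 6.99%. The log2 fold change was negative in 9 of the 10, beside 45.3% of all probe sets, and positive in 1, *Ccnd3*, beside 54.7%. The median over the 10 genes was −0.12, and over all tested probe sets it was 0.014. Skin was measured in bulk, so fewer cells of a type and less RNA per cell cannot be told apart.

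**Figure D1:**
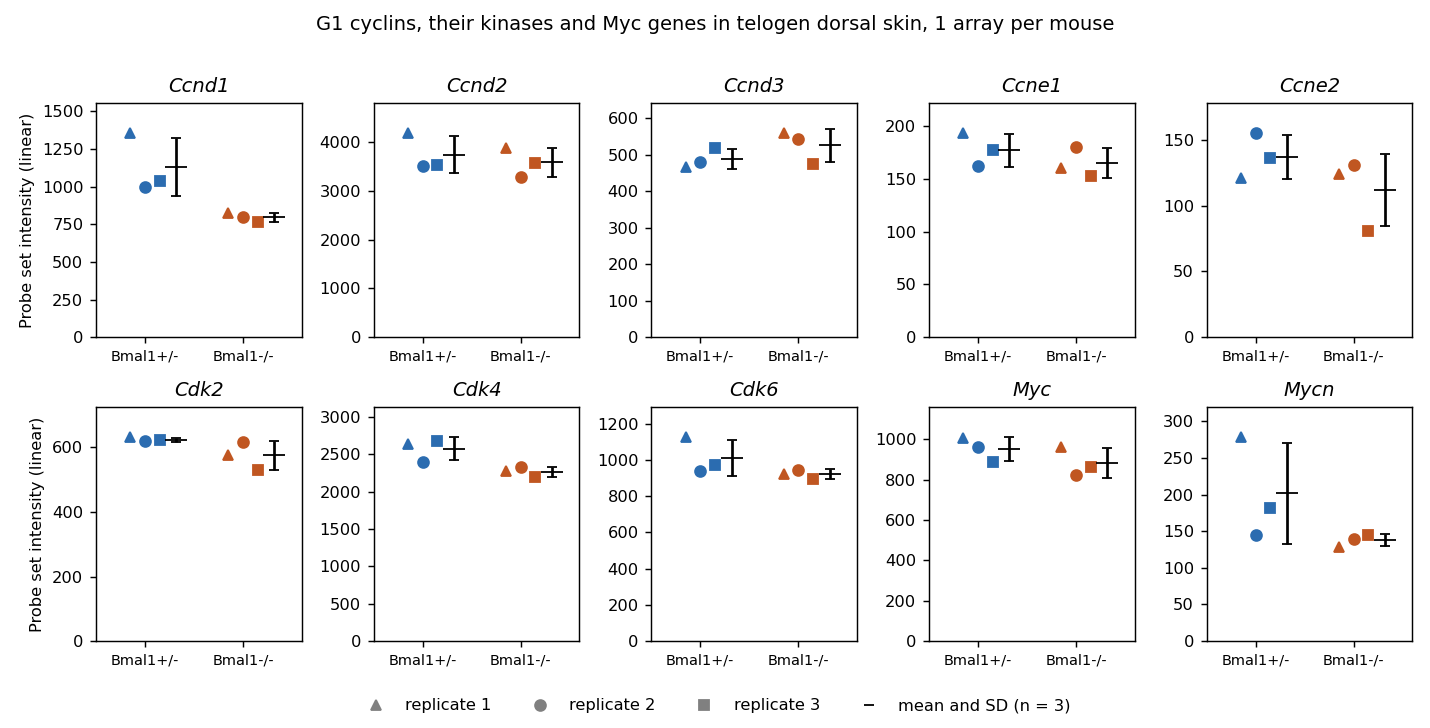
Probe set intensity (linear scale, axis from 0) of each of the 10 genes in the 3 Bmal1+/- mice (blue) and the 3 Bmal1-/- mice (orange), with a symbol for each replicate and the mean ± SD (n = 3) beside the points. The groups do not overlap for *Ccnd1*, *Cdk2* and *Cdk4*, and replicate 1 of Bmal1+/-, the male, is the highest point for 7 genes.

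*Ccnd1* encodes cyclin D1, the D-type cyclin most closely tied to growth factor, Wnt and Hedgehog signals in epithelium. Its probe set, 10569646, read 1353, 999.5 and 1037 in Bmal1+/- skin against 826, 801 and 765 in Bmal1-/- skin. All 3 Bmal1-/- mice lay below all 3 Bmal1+/- mice, and the Bmal1-/- values were close together while 1 Bmal1+/- mouse was well above the other two. The means were 1129.9 ± 194 and 797 ± 30.9 (SD, n = 3 each). The log2 fold change was −0.48 with an SE of 0.11 and a 95% interval of −0.72 to −0.25, a level of 71.6% of Bmal1+/- (60.8% to 84.4%). The unadjusted limma p was 0.0012 and the adjusted p 0.16, so the difference did not pass the threshold. The exact permutation test over the 6 mice gave a two-sided p of 0.1, the smallest that 3 against 3 can give.

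The call for *Ccnd1* depended on the test. The study used Cyber-T, another regularised test, with a cutoff of 0.001 on the unadjusted p. A Cyber-T type test, built after it, gave *Ccnd1* an unadjusted p of 4.8e-05 and an adjusted p of 0.0085 with the same log2 fold change. At an adjusted p under 0.05 the Cyber-T type test called 0.756% of all probe sets lower and 0.41% higher. The highest of the 6 values belonged to the male. Without that mouse the Bmal1+/- mean was 1018 (n = 2) and the log2 fold change −0.35, with a limma unadjusted p of 0.00085 and an adjusted p of 0.2. Both female Bmal1+/- mice still lay above all 3 Bmal1-/- mice. Sex and the second age label fall on the same mouse and cannot be told apart. The study reported that hair cycling was in general slightly further on in males. The part of this in the values of that mouse was not tested.

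The other D-type cyclins gave no such separation. *Ccnd2*, whose protein activates the same kinases, read 4172, 3499 and 3531 in Bmal1+/- and 3874, 3287 and 3571 in Bmal1-/- skin (probe set 10548105). Its groups overlapped, with a log2 fold change of −0.06, a 95% interval of −0.25 to 0.13 and a limma adjusted p of 0.87, and without the male the value was 0.022. *Ccnd3*, the third D-type cyclin, read 466, 479.7 and 519 in Bmal1+/- and 559, 544 and 475 in Bmal1-/- skin (probe set 10445688). The highest of its values were from Bmal1-/- replicates 1 and 2, the groups overlapped, and the log2 fold change was 0.1 (−0.08 to 0.28, limma adjusted p 0.75).

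The differences between the D-type cyclins were tested within each mouse for the 3 possible pairs. The log2 fold change of *Ccnd1* minus that of *Ccnd2* was −0.42, and minus that of *Ccnd3* it was −0.58. For both pairs all 3 Bmal1-/- mice lay below all 3 Bmal1+/- mice, with an exact permutation p of 0.1 and 0.15 after adjustment over the 3 pairs. *Ccnd2* differed from *Ccnd3* by −0.16, with an exact permutation p of 0.5 before and after adjustment. No pair could pass the threshold in a test of this size.

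**Figure D2:**
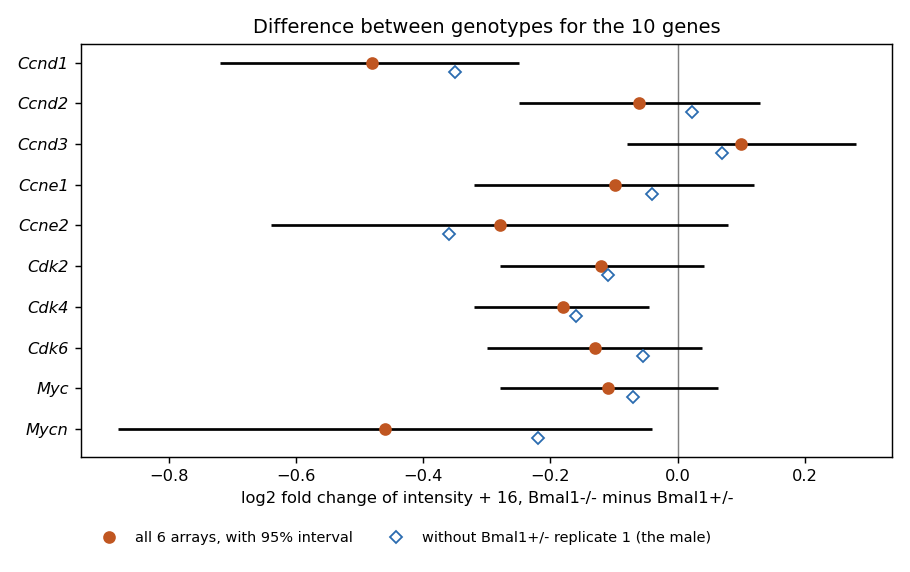
Log2 fold change of intensity + 16, Bmal1-/- minus Bmal1+/-, for each of the 10 genes from all 6 arrays with its 95% interval (orange points and lines), and the same value without the male Bmal1+/- replicate 1 (open blue diamonds). The intervals of *Ccnd1*, *Cdk4* and *Mycn* do not include 0, and leaving out the male moves *Ccnd1* from −0.48 to −0.35 and *Mycn* from −0.46 to −0.22.

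The E-type cyclins, which activate Cdk2 at the end of G1, overlapped between the genotypes. *Ccne1* read 193, 162 and 177 in Bmal1+/- and 160.3, 180.4 and 153 in Bmal1-/- skin (probe set 10562563), a log2 fold change of −0.099 (−0.32 to 0.12, limma adjusted p 0.81) that ran from −0.16 to −0.041 when 1 mouse was left out. *Ccne2* read 121, 155 and 136 in Bmal1+/- and 124, 131 and 80.7 in Bmal1-/- skin (probe set 10503264). Bmal1-/- replicate 3 was the lowest of the 6, below the other two of its group. The log2 fold change of *Ccne2* was −0.28 (−0.64 to 0.079, limma adjusted p 0.66), and it was −0.093 without that mouse.

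RefSeq promoter windows of build GRCm38.p6, from 250 bases before to 50 after each annotated start, were read for 6 of the 10 genes, *Cdk4*, *Cdk6*, *Cdk2*, *Mycn*, *Ccne1* and *Ccnd3*. *Ccnd1*, *Ccnd2*, *Ccne2* and *Myc* were not analysed here. The windows were searched on both strands for the E-box CACGTG, the site that CLOCK and BMAL1 bind and that Myc with its partner Max binds as well, for the E2F words TTTCCCGC, TTTGGCGC and TTTCGCGC, which can overlap each other, and for the D-box TTATGCAA of the PAR bZIP clock factors. The 4 windows that hold a match are shown without their last 50 bases, 5′ to 3′ along the gene's strand, with each match in capitals. They are *Cdk4* (chr10:127063285-127063534, plus strand), *Cdk6* (chr5:3343643-3343892, plus strand), *Cdk2* (chr10:128705052-128705301, minus strand) and *Mycn* (chr12:12941837-12942086, minus strand).
Cdk4: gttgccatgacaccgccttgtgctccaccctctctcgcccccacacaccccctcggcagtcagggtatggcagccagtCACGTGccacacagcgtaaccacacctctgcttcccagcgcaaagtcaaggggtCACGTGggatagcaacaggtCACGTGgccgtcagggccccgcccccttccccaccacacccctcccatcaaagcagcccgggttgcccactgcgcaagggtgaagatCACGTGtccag
Cdk6: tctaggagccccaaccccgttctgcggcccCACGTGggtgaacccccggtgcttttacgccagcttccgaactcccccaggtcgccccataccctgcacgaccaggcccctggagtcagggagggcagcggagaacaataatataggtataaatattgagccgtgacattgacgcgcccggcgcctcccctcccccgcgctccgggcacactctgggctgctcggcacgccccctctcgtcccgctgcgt
Cdk2: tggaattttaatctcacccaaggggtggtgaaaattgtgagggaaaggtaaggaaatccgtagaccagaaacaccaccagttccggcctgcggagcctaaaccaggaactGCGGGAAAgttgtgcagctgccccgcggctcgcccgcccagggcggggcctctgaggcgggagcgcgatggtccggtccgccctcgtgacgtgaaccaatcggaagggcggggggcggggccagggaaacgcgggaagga
Mycn: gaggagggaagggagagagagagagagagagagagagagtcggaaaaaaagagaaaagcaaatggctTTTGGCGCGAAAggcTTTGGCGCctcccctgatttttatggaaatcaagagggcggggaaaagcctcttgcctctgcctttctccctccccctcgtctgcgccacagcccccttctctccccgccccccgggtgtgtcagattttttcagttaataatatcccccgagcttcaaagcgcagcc

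The *Cdk4* window held 4 E-boxes, with first bases at −172, −118, −98 and −11 from the start. Among all 32851 RefSeq windows, 7.15% held at least 1 E-box, and 8 windows (0.0244%) held 4 or more. *Cdk6* held 1 E-box at −220, so 2 of the 6 genes had one. The *Mycn* window held 3 E2F words, at −183, −179 and −168. The word at −179 lies on the opposite strand and overlaps the one at −183. *Cdk2* held 1 at −140, also on the opposite strand. Among all windows 1.84% held any of the 3 words. No D-box was found in these windows, and 0.743% of all windows held one. The windows of *Ccne1* and *Ccnd3* held none of the words. A match of letters is a description and does not show binding.

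Of the kinases, *Cdk4* had the smallest p. *Cdk4*, the partner of the D-type cyclins in most cells and the gene with 4 E-boxes above, read 2640.4, 2396 and 2681 in Bmal1+/- and 2275, 2324 and 2198 in Bmal1-/- skin (probe set 10366814), and the groups did not overlap. Its log2 fold change was −0.18 with an SE of 0.061 and a 95% interval of −0.32 to −0.045, a level of 88.2% of Bmal1+/-. The unadjusted limma p was 0.015 and the adjusted p 0.42, and without the male the log2 fold change was −0.16. *Cdk6*, the other partner of the D-type cyclins, read 1124, 938 and 971 in Bmal1+/- and 920.5, 946 and 892 in Bmal1-/- skin (probe set 10519324). Its groups overlapped and its log2 fold change was −0.13 (−0.3 to 0.039, limma adjusted p 0.66), or −0.054 without the male. *Cdk2*, the partner of the E-type cyclins, read 631, 619 and 622 in Bmal1+/- and 576, 618 and 531 in Bmal1-/- skin (probe set 10373530). Its groups did not overlap, but Bmal1-/- replicate 2 lay next to the lowest Bmal1+/- mouse, and the log2 fold change was −0.12 (−0.28 to 0.041, limma adjusted p 0.67), or −0.063 without Bmal1-/- replicate 3.

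*Myc* differed little between the genotypes. It read 1005, 961 and 890.1 in Bmal1+/- and 964, 823 and 861 in Bmal1-/- skin (probe set 10424400), and the groups overlapped. The log2 fold change was −0.11 with a 95% interval of −0.28 to 0.063 and a limma adjusted p of 0.72, so a level of 82.3% to 104% of Bmal1+/- lay within the interval. Leaving out 1 mouse moved it between −0.061, without Bmal1-/- replicate 2, and −0.17, without Bmal1-/- replicate 1 (limma unadjusted p 0.042, adjusted p 0.6). *Mycn*, which encodes a close relative of Myc known for its role in embryonic tissues, read 278, 145 and 182 in Bmal1+/- and 129, 139 and 145 in Bmal1-/- skin (probe set 10399421). The spread lay among the controls, with the male far above the rest, and Bmal1+/- replicate 2 was level with the highest Bmal1-/- mouse. The log2 fold change was −0.46 with an SE of 0.19 and a 95% interval of −0.88 to −0.04, with an unadjusted limma p of 0.035 and an adjusted p of 0.52. Without the male it was −0.22, with a limma unadjusted p of 0.11, and without Bmal1+/- replicate 2 it was −0.65.

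A few mice recurred at the extremes. The male Bmal1+/- mouse had the highest value for 7 of the 10 genes, and over all probe sets it was highest for 15.8%. Bmal1-/- replicate 3 had the lowest value for 6 of the 10, and over all probe sets it was lowest for 12.9%. The 10 genes share these mice, so their directions are not independent of each other.

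The other genes of the G1 to S pathway were taken as 8 lists, and with limma none of their genes was called. The lists were composed with earlier results of these data known. The kinase inhibitors, which hold cyclin-kinase complexes in check, all had small positive values, 6 of 6 measured, with a median of 0.049. The larger of them were *Cdkn1c*, which encodes p57, at 0.14 (limma adjusted p 0.7) and *Cdkn1b*, which encodes p27, at 0.1 (limma adjusted p 0.74), and both overlapped between the genotypes. *Cdkn1a*, which encodes p21, was not analysed here, because the probe set that carries its name carries another gene's as well. *Wee1*, whose kinase holds back entry into mitosis, read 1656, 1529 and 1186 in Bmal1+/- and 1135, 624 and 623 in Bmal1-/- skin. All Bmal1-/- mice lay below all Bmal1+/- mice, with Bmal1-/- replicate 1 close to the lowest control. Its log2 fold change was −0.91 with an SE of 0.21 and a limma adjusted p of 0.2, and it was called by the Cyber-T type test (adjusted p 0.0022).

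The retinoblastoma and E2F genes, the targets of the G1 kinases, were mixed. Of 13 genes, 6 had negative and 7 positive values, with a median of 0.0038. At an unadjusted limma p under 0.05 there were 2 lower, beside 4.6% of all probe sets, and 1 higher, beside 4.17%. Without overlap 3 were lower, beside 7.68% of all probe sets, and 0 higher, beside 6.99%. *E2f2*, an activating E2F, had a log2 fold change of 0.3 with overlap (limma adjusted p 0.5). *Rbl1*, which encodes the retinoblastoma relative p107, had one of −0.25 without overlap (limma adjusted p 0.44). *Tfdp1* was lower without overlap on both its probe sets, at −0.19 (limma adjusted p 0.33) and −0.21 (limma adjusted p 0.43). The brighter probe set of *E2f3* gave −0.054 with overlap, and its other gave −0.34 without overlap (limma adjusted p 0.33). The genes for kinase activation and cyclin turnover lay close to 0, 12 of 16 negative, with a median of −0.038. The values furthest from 0 were −0.14 for *Skp1* (limma adjusted p 0.64) and −0.13 for *Fbxo4* (limma adjusted p 0.63), both parts of ubiquitin ligases.

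**Figure D3:**
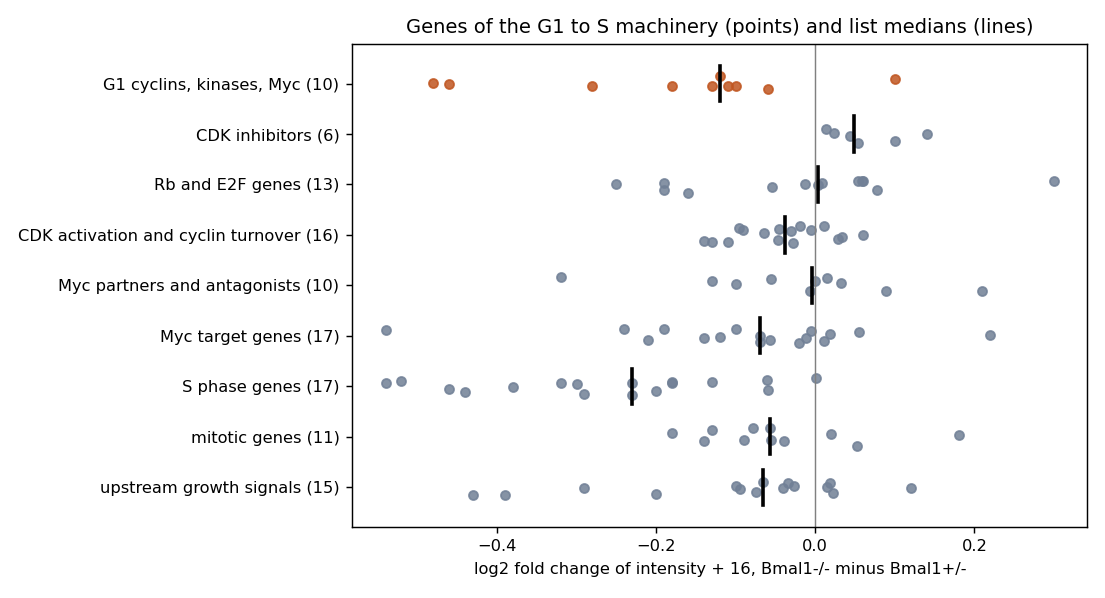
Log2 fold change of intensity + 16, Bmal1-/- minus Bmal1+/-, of each measured gene (points) in the 10 genes described here and in 8 lists of the G1 to S pathway, with the number of genes in brackets and the median of each list as a black line. The median is −0.23 for the S phase genes, −0.12 for the G1 cyclins, kinases and Myc genes and 0.049 for the kinase inhibitors.

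Genes that act with or after Myc were tested in 2 lists. Among 10 partners and antagonists, 6 values were negative and 4 positive, with a median of −0.0039. *Mycl*, the third Myc family gene, read 572, 617 and 671 in Bmal1+/- and 415, 549.8 and 521 in Bmal1-/- skin, a log2 fold change of −0.32 with no overlap (limma adjusted p 0.42), and *Mlx*, a Max-like partner of the Mxd proteins, had one of 0.21 (limma adjusted p 0.63). Among 17 Myc target genes 13 were negative, with a median of −0.069. At an unadjusted limma p under 0.05, 2 were lower, beside 4.6% of all probe sets, and 0 higher, beside 4.17%.

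*Odc1*, a classical Myc target whose product makes polyamines, had the largest difference among the Myc targets. It read 1861, 1378 and 1577 in Bmal1+/- and 1135, 1054 and 1096 in Bmal1-/- skin, without overlap, with a log2 fold change of −0.54 (SE 0.098) and a limma adjusted p of 0.09. A second probe set of *Odc1* gave −0.53. Without the male the value was −0.42 (limma adjusted p 0.15), and without Bmal1+/- replicate 2 it was −0.64 and was called (limma adjusted p 0.03). *Cad*, an enzyme of pyrimidine synthesis, had a log2 fold change of −0.24 with overlap (limma adjusted p 0.59). 

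The S phase genes, which E2F raises at the end of G1, stood furthest from 0. Of 17 measured, 16 had negative values, with a median of −0.23, and 8 had all Bmal1-/- mice below all Bmal1+/- mice, beside 7.68% of all probe sets. At an unadjusted limma p under 0.05, 10 were lower, beside 4.6% of all probe sets, and 0 higher, and this count was 6 without the male, without Bmal1+/- replicate 3 or without Bmal1-/- replicate 3. The largest differences were in the replication helicase. *Mcm5* read 399, 367 and 388 in Bmal1+/- and 333, 287 and 183 in Bmal1-/- skin, a log2 fold change of −0.54 (limma adjusted p 0.4). *Mcm3* read 489.9, 423 and 418 in Bmal1+/- and 362, 322 and 242 in Bmal1-/- skin, a log2 fold change of −0.52 (limma adjusted p 0.26). In both, Bmal1-/- replicate 3 was the lowest of the 6 mice, and without it the values were −0.3 for *Mcm5* and −0.36 for *Mcm3*. The Cyber-T type test called *Mcm3* and *Mcm6* lower, beside 0.756% of all probe sets.

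The mitotic genes, which mark cells in division, did not separate the genotypes. Of 11 measured, 8 were negative and 3 positive, with a median of −0.057. At an unadjusted limma p under 0.05 there were 0, where 4.6% of all probe sets were lower and 4.17% higher. Their largest values were −0.18 for *Cdk1*, the mitotic kinase (limma adjusted p 0.83), and 0.18 for *Cenpe*, a kinetochore motor (limma adjusted p 0.82), and without Bmal1-/- replicate 3 that of *Cdk1* was 0.073. The spread came from the Bmal1-/- mice: the mean log2 deviation of the list from the Bmal1+/- mean was 0.16 and 0.23 in replicates 1 and 2 and −0.53 in replicate 3, against −0.05 to 0.047 in the Bmal1+/- mice.

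The mean deviation of the S phase genes was −0.091, −0.19 and −0.52 in Bmal1-/- replicates 1 to 3, and −0.033 to 0.054 in Bmal1+/- mice. The mouse with the lowest mitotic genes therefore had the lowest S phase genes as well. *Ccnd1* varied little among the Bmal1-/- mice, at −0.43, −0.48 and −0.54. Averaged over the 10 genes, the deviation was −0.14, −0.14 and −0.26 in Bmal1-/- skin against 0.11, −0.081 and −0.029 in Bmal1+/- skin. The part of the mitotic genes of replicate 3 in these values was not tested.

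**Figure D4:**
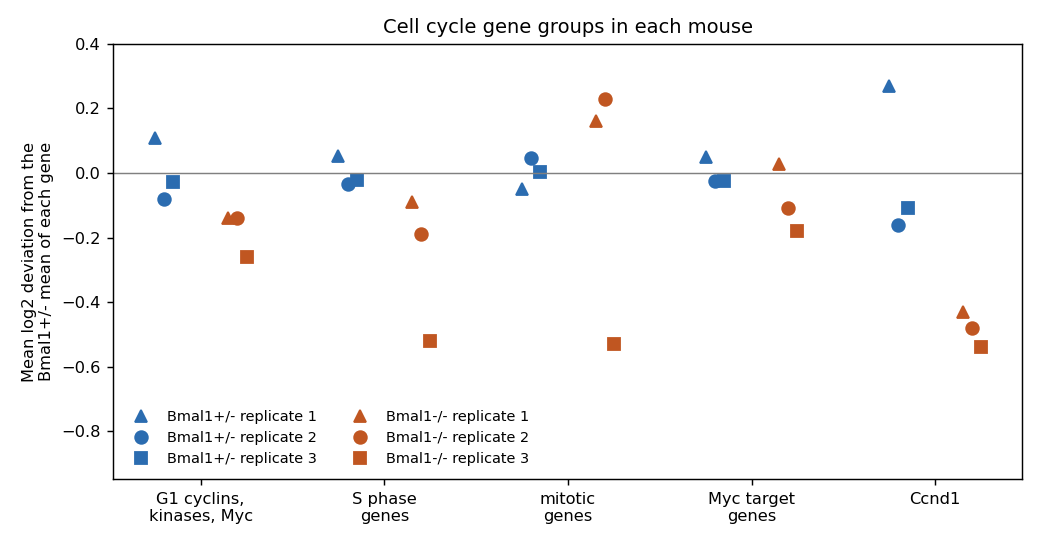
Mean log2 deviation from the Bmal1+/- mean of each gene, for each mouse (symbols), over the G1 cyclins, kinases and Myc genes, the S phase genes, the mitotic genes and the Myc targets, and for *Ccnd1* alone. Bmal1-/- replicate 3 is at −0.53 for the mitotic genes and −0.52 for the S phase genes, apart from the other Bmal1-/- mice, while for *Ccnd1* the 3 Bmal1-/- mice lie between −0.54 and −0.43.

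Signals upstream of the D-type cyclins were measured with 15 genes. Of these 11 were negative, with a median of −0.066. At an unadjusted limma p under 0.05, 3 were lower, beside 4.6% of all probe sets, and 0 higher, beside 4.17%. The 3 were *Gli1*, *Lef1* and *Igf1*, a growth factor. *Igf1* read 2343, 2437 and 2416 in Bmal1+/- and 2099.8, 2119 and 2061 in Bmal1-/- skin. Its log2 fold change was −0.2 without overlap (limma adjusted p 0.26), and the male was the lowest Bmal1+/- mouse. *Gli1*, a factor and target of the Hedgehog pathway, read 411, 314 and 312 in Bmal1+/- and 253, 260.3 and 241 in Bmal1-/- skin, a log2 fold change of −0.43 (limma adjusted p 0.25). *Lef1*, a factor of the Wnt pathway, read 495, 375 and 398 in Bmal1+/- and 311, 343 and 299.6 in Bmal1-/- skin, a log2 fold change of −0.39 (limma adjusted p 0.3). For *Gli1* and *Lef1* the groups did not overlap and the male was the highest mouse, and without it the values were −0.3 and −0.27. The Cyber-T type test called *Gli1* (adjusted p 0.027). *Ptch1* of the Hedgehog pathway, at −0.29 (limma adjusted p 0.59), and *Axin2* of the Wnt pathway, at −0.074 (limma adjusted p 0.82), overlapped between the genotypes.

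Across the 6 arrays, the genes whose pattern was most like that of *Ccnd1* were *Ndnf* (Pearson r 0.9957), *Shc2* (0.9954) and *Lgr6* (0.9952), among 19086 probe sets with 1 symbol and a mean intensity of at least 64. For *Myc* they were *Rbx1* (0.9925), *Nars* (0.9923) and *Slc5a6* (0.9899). With 6 points r is imprecise, and of the 19086 probe sets 107 exceeded 0.95 with *Ccnd1* and 72 with *Myc*. These are descriptions of 6 arrays that share tissue and processing.

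The makeup of the skin was checked with 8 lists of marker genes, of epidermis, the telogen bulge and hair germ, the anagen matrix and hair shaft, dermal fibroblasts, adipocytes, striated muscle, leukocytes and endothelium. Of 58 markers 56 were measured, all with intensities above 0, the lowest mean being 33.1 for *Cd79a* of B cells, and none was called with limma. Their log2 fold changes were negative in 29 and positive in 27, and the summed level of every list overlapped between the genotypes. Without overlap 4 were lower, beside 7.68% of all probe sets, and 5 were higher, beside 6.99%. The lower ones were *Cd34* (bulge, −0.26), *Trps1* (in the matrix list, −0.25), *Vim* (fibroblasts, −0.16) and *Cd3g* (T cells, −0.29). The higher ones were *Ivl* (0.23) and *Lor* (0.17), both of differentiating epidermis, *Dlx3* (in the matrix list, 0.28), *Pparg* (adipocytes, 0.26) and *Tek* (endothelium, 0.23). *Krt1* and *Krt10*, also of differentiating epidermis, went the other way, at −0.14 and −0.035, both with overlap. On the brightest probe set of each marker the smallest limma adjusted p was 0.22, for *Pparg*. A second probe set of *Trps1* gave −0.29 without overlap (limma adjusted p 0.18).

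The bulge and hair germ markers summed to 16307 to 17775 in Bmal1+/- and 14875 to 16544 in Bmal1-/- mice, with 4 genes negative, 3 positive and a median log2 fold change of −0.064. The epidermal markers summed to 44208 to 48930.2 and 42075 to 47087, with 4 negative, 2 positive and a median of −0.063, and *Krt5* and *Krt14* of the dividing basal layer had values of −0.092 and −0.1. The fibroblast markers summed to 74069 to 81707 and 67928 to 75664, with 6 of 7 negative and a median of −0.15. The adipocyte markers had 5 of 6 positive and a median of 0.13. The negative one, *Lep*, was at −0.87 with overlap (limma adjusted p 0.69). It read 86.3 in Bmal1-/- replicate 1 and 467 to 689 in the other mice. The mean log2 deviation of the adipocyte list was −0.27, −0.062 and 0.31 in Bmal1-/- replicates 1 to 3, and −0.075 to 0.055 in Bmal1+/- mice. Bmal1-/- replicate 3 had the highest adipocyte sum, 16010 against 12083 to 13534 in the other mice. Its endothelial sum was also the highest, 4515 against 3403 to 3667. In the same mouse the epidermal, bulge and hair germ, and fibroblast sums were the lowest. The part of the cell makeup in the values of *Ccnd1* and the S phase genes was not tested.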

How the data were processed

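Dorsal skin RNA of 6 mice, 3 Bmal1+/- and 3 Bmal1-/-, was hybridised to Affymetrix Mouse Gene ST arrays, and groups, replicate numbers, sex and age came from the labels. Intensity per probe set was deposited by the authors without logarithm, and their processing notes name PLIER 2.0 and Affymetrix Expression Console 1.1. The sources used here do not give the background correction, the scaling of the arrays or a genome build. The deposited intensities were put on a log2 scale here as log2(intensity + 16), with no added normalization, and fitted with limma 3.58.1 in R 4.3.3 (lmFit, eBayes with an intensity trend, two-sided), with Benjamini-Hochberg adjustment over the 23410 probe sets paired with at least 1 symbol. Of these 1621 carry several symbols and name no gene. A gene with several probe sets was represented by the brightest.

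The procedure was tested on simulated data. Alternatives changed the offset, normalization, dim filter, probe sets tested, variance model, array weights, test, replicate block, sex term or threshold, or left out 1 array. The Cyber-T type test averaged standard deviations over 101 probe sets with a prior weight of 10. Same-numbered mice of the 2 genotypes are not the same animal and no label ties their numbers or gives their litters, so p-values treat the mice as unpaired. The 10 genes and all lists were chosen with earlier results of these data known. Genes named in the lists are the called ones or, where none was called, the 2 with the largest absolute log2 fold change. *Wee1* was added because the study measured it as a cell cycle regulator. *Mcm6*, *Igf1*, *Tfdp1*, *E2f3*, *Ptch1*, *Axin2* and the cell type markers were named after their values were seen. Promoter sequences are RefSeq's (GRCm38.p6). Python 3.11.15 with scipy 1.17.1 and matplotlib 3.10.9 gave the exact permutation tests and figures.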

Additional observations from a re-analysis of the deposited data

How the results depend on the processing

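Of the 10 genes, 0 were called by limma as reported, 1 (*Ccnd1*) was called by the Cyber-T type test, and 0 were called under any other setting. Those settings include a limit of 0.001 on the unadjusted p of limma as reported. Over the 19 alternative settings the log2 fold change of *Ccnd1* ran from −0.56 to −0.35 and its adjusted p from 0.0085 to 0.39, and its unadjusted p was under 0.001 in 7 of them. Of 190 values of the 10 genes over these settings, 187 kept their direction and side of the threshold. The exceptions were *Ccnd1* in the Cyber-T type test and *Ccnd2*, which turned to 0.022 with sex as a term and without Bmal1+/- replicate 1, the same fold change under both names since that mouse is the only male. The dim filter, probe sets tested, variance model, test and replicate block leave a fold change as it is. Its direction could not turn under those settings. When 1 array was left out *Ccnd2* ran from −0.12 to 0.022 and *Cdk1* from −0.37 to 0.073. The 8 lists measured 6, 13, 16, 10, 17, 17, 11 and 15 genes. Of these list genes the Cyber-T type test called 4, all lower (*Odc1*, *Mcm3*, *Mcm6* and *Gli1*). Over all probe sets it called 0.756% lower and 0.41% higher. At an unadjusted limma p under 0.001 stood 1 (*Odc1*, lower), beside 0.397% of all probe sets lower and 0.252% higher. When 1 array was left out 0 to 1 were called, where 38 to 57 of all probe sets were called. The value 0.073 of *Cdk1* was that without Bmal1-/- replicate 3. The S phase count at an unadjusted p under 0.05 ran from 6 to 13. Over all probe sets limma called 54, and the count was 34 with unnamed probe sets included, 27 without the intensity trend and 273 with the Cyber-T type test (177 lower, 96 higher). Same-numbered mice correlated at 0.0778, −0.346 and 0.0559 in their deviations, and differently numbered mice at −0.263 to 0.259. These deviations are taken from group means of 3 mice and cannot show whether mice shared a litter, which no label gives. With the replicate block 0 of the 10 genes were called, the adjusted limma p of *Ccnd1* was 0.13, 54 probe sets were called in all, and *Wee1* was called (adjusted p 0.042), as it was without Bmal1-/- replicate 1 (adjusted p 0.013). Each of the 10 genes has 1 probe set, so a mean over probe sets could not be computed as an alternative. Array values have no read depth, and 2.58% to 3.34% of the values of an array lay below 16.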
